A study of Homo sapiens with 8 samples.

Results

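Of 1249 start sites deposited as specific to proliferating or to senescent fibroblasts, 252 had a midpoint within 1 kb of an annotated transcript start or inside an annotated exon. These sites are described here. They were found by position alone, in GENCODE 44 on the hg19 assembly, and the deposited fold of a site played no part in the choice. A site was first classed as near a start and otherwise, where it lay in an exon, as exonic. The list of senescent cells held 74 near-start and 71 exon sites among its 849 sites, and the list of proliferating cells held 67 and 40 among its 400. The near-start class was 8.72% (95% Wilson interval 7 to 10.8) of the senescent list and 16.75% (13.41 to 20.72) of the proliferating list, and the exon class 8.36% and 10%. The near-start shares depend on the annotation: they were 1.65% and 3.25% with GENCODE's basic transcripts only, and 4.95% and 12.5% with a window of 500 bases. Nearly all other sites lay in introns, 704 and 288 of them, and these serve as the comparison below.

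The series mapped nascent transcription in IMR90, a fibroblast line from human lung grown in low oxygen, when the cells were dividing and after replicative senescence, the lasting arrest reached by serial passage. PRO-cap, which selects capped 5′ ends of RNA made in a nuclear run-on and so marks where transcription starts, was done on 3 libraries of proliferating cells (population doubling 23 for replicate 1 and 26 for replicates A and B) and 3 of senescent cells (population doubling 76 for replicate 1 and 67 for replicates A and B). PRO-seq, which maps engaged polymerase, had 1 library per state, at population doublings 20 and 76, and is not analysed here. All groups share 1 cell line. Arrest was checked by the submitters with markers such as p16, per the labels. The lists hold no expression values with which to check the fibroblast label.

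Each list gives 1 fold per site, that of its own state over the other, and no value per library. The folds could be turned back into whole reads, as described under the processing. Sites are therefore given below as reads in their own state and reads in the other state, the latter summed over sites where stated. A count of 0 allows up to 3 reads. The labels attach each list to all 3 PRO-cap libraries of its state and name pooled signal tracks of replicates A and B, but not the libraries that were counted for the lists. There is thus no spread between cultures and no test of the state. The intervals below cover the counting of sites only. They are too narrow where sites lie side by side, since such sites are not independent.

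A gene is usually transcribed from the promoter at its 5′ end, and many genes also have internal promoters from which shorter transcripts begin. Capped RNA also starts at enhancers, which often sit in introns and are transcribed in both directions. Near-start sites are therefore the members for which the annotation already names a transcript that begins close by, while exon sites begin inside sequence that is part of a mature RNA. All sites in both lists carry the same strand symbol, so the direction of transcription cannot be given, and a gene named here is the one whose start or exon lies at the site, not one shown to make the RNA.

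By position, most near-start sites lay at internal starts. Of the 141 near-start sites, 125 had a nearest start that lay more than 1 kb from the 5′ end of its own gene, and at the other 16 it lay within 1 kb of it. Measured from the 5′ end of the coding gene holding them, all 130 senescent and all 101 proliferating members in such genes lay over 5 kb away. Most were far into their gene, and 117 and 96 of these members lay past its midpoint. Their median position was at 75.8% and 86.7% of its length and 95.3 kb and 51.55 kb from its 5′ end. The same values over the intronic sites or whole lists are not given here, so these positions cannot be read as a property of the members. The exon members, by the rule, lay over 1 kb from any annotated start. No member had a site of the other list within 10 kb, and over whole lists only 2 senescent sites (0.236%) and 2 proliferating sites (0.5%) had one.

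Sequences of sites with many reads show the sequence types met among the members. Each is 200 bases centred on the site, read 5′ to 3′ on the + strand of GRCh37, the assembly with the coordinates of hg19. Capitals mark the AP-1 motif TGACTCA (or its reverse complement TGAGTCA), the GC box GGGCGG (or CCGCCC) and the TATA box TATAAA or TATATA (or TTTATA), all searched on both strands. AP-1 is a family of dimers of Fos and Jun proteins, and the GC box is the core of the sites that Sp1 and related factors bind. The first 3 are senescent-only sites near internal starts, the next 2 proliferating-only sites near internal starts, and the last a proliferating-only site in a coding exon.
LTBP1 (chr2:33500958-33501157): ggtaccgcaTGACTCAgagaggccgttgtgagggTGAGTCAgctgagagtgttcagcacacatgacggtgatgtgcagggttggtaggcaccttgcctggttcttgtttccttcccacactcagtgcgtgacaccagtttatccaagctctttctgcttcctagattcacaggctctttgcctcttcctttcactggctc
PXDN (chr2:1658113-1658312): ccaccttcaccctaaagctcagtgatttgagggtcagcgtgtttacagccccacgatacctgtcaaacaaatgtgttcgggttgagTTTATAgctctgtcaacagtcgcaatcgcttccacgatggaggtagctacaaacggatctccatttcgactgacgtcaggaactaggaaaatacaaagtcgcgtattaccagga
PTPRM (chr18:8122089-8122288): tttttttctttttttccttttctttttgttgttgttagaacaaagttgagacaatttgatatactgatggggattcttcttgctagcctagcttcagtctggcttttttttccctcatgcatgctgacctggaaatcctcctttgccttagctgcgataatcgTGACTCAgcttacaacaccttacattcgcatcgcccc
EGF (chr4:110901698-110901897): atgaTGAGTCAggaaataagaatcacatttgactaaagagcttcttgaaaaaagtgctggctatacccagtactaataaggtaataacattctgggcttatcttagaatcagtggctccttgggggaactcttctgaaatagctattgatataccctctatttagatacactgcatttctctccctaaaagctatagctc
ARHGAP22 (chr10:49674626-49674825): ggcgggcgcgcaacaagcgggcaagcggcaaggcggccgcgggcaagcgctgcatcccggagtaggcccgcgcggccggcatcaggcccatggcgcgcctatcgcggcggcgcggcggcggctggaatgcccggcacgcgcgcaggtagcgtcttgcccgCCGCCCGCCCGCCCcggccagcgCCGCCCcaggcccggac
SLC9A4 (chr2:103130545-103130744): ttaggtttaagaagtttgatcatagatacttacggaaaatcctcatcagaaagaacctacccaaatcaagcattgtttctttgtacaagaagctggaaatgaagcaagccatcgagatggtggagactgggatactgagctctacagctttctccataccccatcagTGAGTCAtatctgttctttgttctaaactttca

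The LTBP1 window held 2 AP-1 motifs and the PTPRM, EGF and SLC9A4 windows 1 each, while PXDN held a TATA box and no other motif marked in capitals. The PXDN window also held the cAMP response element TGACGTCA, which is not marked here and was found at 2 of 74 senescent near-start sites. The ARHGAP22 window held 4 GC boxes, some overlapping, with 36 CpG dinucleotides and 81% GC. EGF is the opposite case, at 37.5% GC with 0 CpG.

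Near-start sites of senescent cells carried more reads than the intronic sites of their list. Their median was 52 reads in senescent cells (95% interval of the median 40 to 87, range 7 to 658, n = 74) against 32 (28 to 36, n = 704) for intronic sites, and the intervals do not overlap. With sites joined within 500 bases the near-start median was 47 with a wider interval (24 to 87). That interval includes the 32 of the intronic sites before joining, and the intronic median after joining is not given here. Exon sites of the same list had a median of 24 (16 to 34, range 1 to 353, n = 71), with an interval that overlaps that of intronic sites. In the proliferating list the medians were 28 (20 to 38) near starts, 27.5 (15 to 43) in exons and 22 (18 to 26) in introns, and all 3 intervals overlap. A site listed for 1 state often had no read at all in the other. That held for 78 of 145 senescent members (53.8%), where the share over the whole list was 55.4%, and for 77 of 107 proliferating members (72.0%), where it was 73%, so the members were near their lists. Near starts it held for 34 of 74 senescent sites (45.95%) and in exons for 44 of 71 (61.97%), and in the proliferating list for 45 of 67 (67.2%) and 32 of 40 (80%). None of the 4 classes differed from the intronic sites of its list beyond the interval of the difference, the widest gap being -9.74 points (-21.2 to 2.13) for senescent near-start sites. The lists were cut at a fold above 10, so these shares describe sites that had already passed that limit. The limit also bears on the read medians, since a site with reads in the other state needs more reads of its own to pass it. In the senescent list the median fold was 84.15 near starts and 296.3 in introns. How much of the read contrast the limit sets was not tested.

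**Figure D1:**
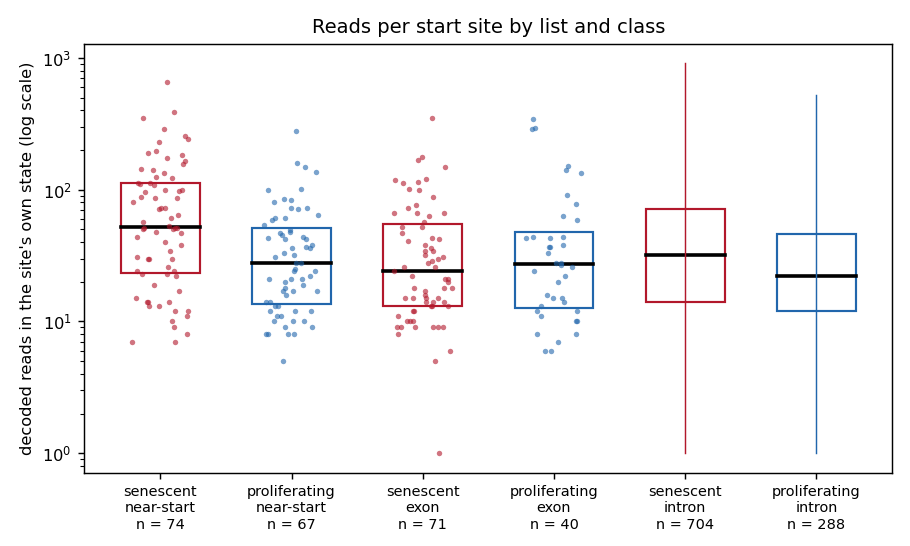
Reads per site in the site's own state (log scale), by list and class; points are single member sites, boxes span the quartiles, black bars are medians, and for intronic sites the line spans lowest to highest. Senescent near-start sites have the highest median, 52 reads, and the other classes lie between 22 and 32.

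Proliferating-only sites sat closer to annotated starts than senescent-only sites did. The median distance from midpoint to nearest start was 212 bases (139 to 284, quartiles 58 and 521.5, n = 67) in the proliferating list and 461.5 bases (291 to 559, quartiles 172.8 and 679.8, n = 74) in the senescent list. Within 100 bases of a start lay 23 of 67 proliferating sites (34.3%, 24.1 to 46.3) and 13 of 74 senescent sites (17.6%, 10.6 to 27.8), a difference of 16.76 points (2.31 to 30.6). When sites within 500 bases of each other were joined and the highest of each region kept, the medians were 238 (n = 45) and 344 bases (n = 49), their intervals overlapped, and the difference within 100 bases was 8.66 points (-9.07 to 26), so the contrast was smaller and its interval included 0. Sites fell on both sides of starts, with 30 upstream, 34 downstream and 3 exactly at a start in the proliferating list and 40 upstream and 34 downstream in the senescent list. The farthest sites inside the 1 kb limit lay at 971 and 984 bases, and the closest sites outside it at 1025 and 1013.

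**Figure D2:**
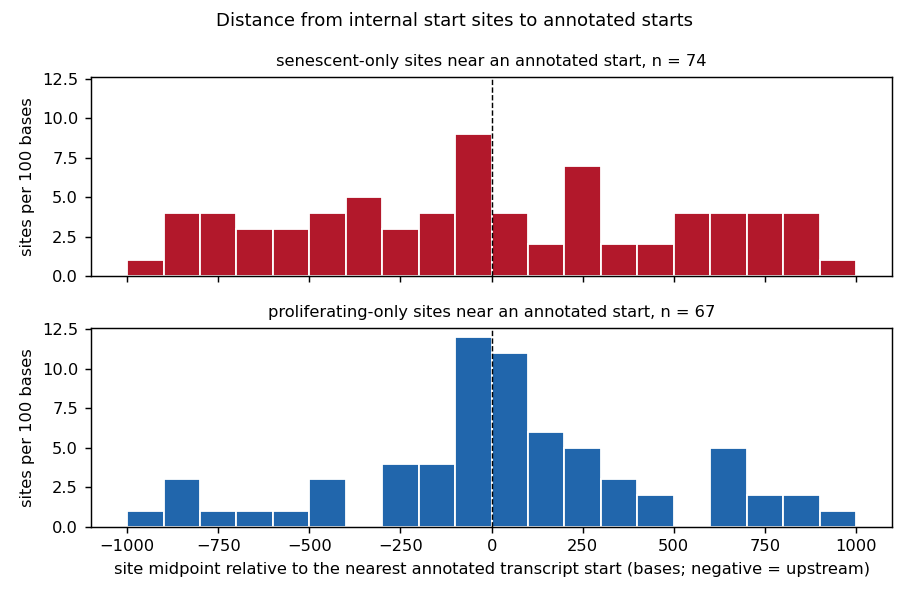
Number of near-start sites in 100-base steps by the position of their midpoint relative to the nearest annotated transcript start (bases, negative upstream), for 74 senescent-only (top) and 67 proliferating-only sites (bottom). Proliferating-only sites pile up at the start, with 23 within 100 bases, and senescent-only sites are spread over the whole window, with 13.

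The starts were mostly those of minor transcripts. The nearest start belonged to a retained-intron transcript at 42 of 141 sites (29.8%), to a transcript of a coding gene with no defined coding sequence at 37 (26.2%), to a protein-coding transcript at 33 (23.4%), to a long noncoding RNA at 19 (13.5%) and to a transcript marked for nonsense-mediated decay at 7. Only 25 (17.7%) were in GENCODE's basic set of transcripts, and 14 (9.93%) were the canonical transcript of their gene. Among all 57538 annotated transcript starts past the midpoint of a coding gene, retained introns were 28.3%, transcripts without a defined coding sequence 17.6%, protein-coding transcripts 27.9%, basic 30.7% and canonical 13.55%. The start belonged to the coding gene holding the site at 118 sites (83.7%), and at 9 to another gene running antisense to it. The midpoint itself was in an exon at 55 of the 141.

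**Figure D3:**
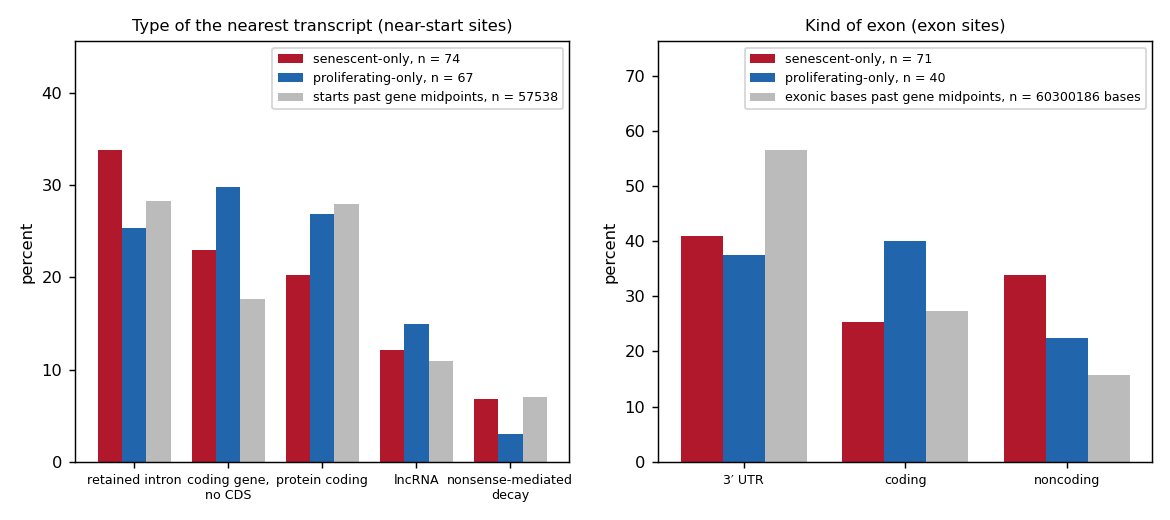
Percent of near-start sites by the type of the nearest transcript (left) and of exon sites by kind of exon (right), beside transcript starts past the midpoint of coding genes and exonic bases there that lie over 1 kb from a start (grey). Retained introns are 33.8% (24.05 to 45.1) of senescent and 25.4% (16.5 to 36.9) of proliferating near-start sites. Both intervals include the 28.3% of the grey starts. The 3′ UTR is a smaller share of exon sites than of exonic bases.

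In senescent cells the near-start site with the highest fold was in LTBP1, which encodes a protein that binds latent TGF-beta in the extracellular matrix. Its main site (chr2:33500983-33501132) had 348 senescent reads and 0 proliferating reads, 81 bases downstream of the start of a coding transcript that begins 329 kb into the gene. A neighbour 178 bases away had 254 and 0 reads and lay in exon 14 of 30. Their 200-base windows overlap and share 1 AP-1 motif, which lies outside the 150 bases of the neighbour and is the only one in its window. The window of the main site held 2. PXDN, which encodes peroxidasin, an enzyme that crosslinks collagen IV, had a site with 141 and 0 reads in exon 15 of 23, 460 bases upstream of an internal start. ETS1, a transcription factor, had 112 and 0 reads 555 bases downstream of a retained-intron start. CD55, a cell-surface inhibitor of complement, had 96 and 0 reads at one site and 64 and 1 at a second 279 bases on. PTPRM, a receptor tyrosine phosphatase of cell contacts, had 80 and 0 reads in the first exon of a transcript starting 555.1 kb into the gene. ANK1, the ankyrin of red cells, had 4 sites around an internal coding start, with 143, 57, 38 and 8 senescent reads and 0, 1, 1 and 0 proliferating reads. A long noncoding RNA antisense to TRIP13, a checkpoint ATPase, held 4 sites with 189, 183, 122 and 110 senescent reads against 4, 0, 4 and 1. The sites listed here ranged from 8 to 348 senescent reads, with 4 or fewer in proliferating cells, a contrast that the fold limit of the list already sets.

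The sites with the most reads were not always those with the highest fold, since the fold divides by the reads of the other state. MAFK, a small Maf protein that pairs with other bZIP factors, had the most reads of any member, 658 in senescent and 31 in proliferating cells, for a fold of 17.7 in the authors' deposited list. Its site lay 484 bases upstream of an internal start, about 6.3 kb into the gene. STARD10, a lipid transfer protein, followed with 388 and 2 reads 43 bases upstream of a coding start, beside sites with 88 and 1 and 71 and 2 reads. LOXL2, a lysyl oxidase that crosslinks collagen, had 287 and 9 and 164 and 2 reads near a retained-intron start.

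In proliferating cells the near-start site with the highest fold was in EGF, the gene of epidermal growth factor. It had 136 proliferating reads and 0 senescent reads and its midpoint coincided with the start of a retained-intron transcript 67.76 kb into the gene (chr4:110901723-110901872). SDC2, a heparan sulfate proteoglycan of the cell surface, had 277 and 5 reads 12 bases upstream of a coding start and 71 and 0 reads 699 bases away. SHANK3, a scaffold of synapses, had 49 and 0 reads 50 bases past a coding start. TBCD, a folding cofactor of tubulin, had 48 and 0 and 32 and 0 reads within 100 bases of a coding start that lies in the last exon of the overlapping gene ZNF750. BCL9, a coactivator of beta-catenin, had 47 and 0 reads 869 bases upstream of one. ARHGAP22 had 44 and 0 reads 14 bases past its start. Except for BCL9 and the outer SDC2 site, the sites named here lay within 100 bases of the start.

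Of 111 exon sites, 76 (68.5%) were in a last exon, 28 in an internal exon, 5 in a single-exon gene and 2 in a first exon. The shares in a last exon were 71.8% (51 of 71) for senescent and 62.5% (25 of 40) for proliferating sites. Last exons are often long, and the share of exonic bases in them was not measured. By kind, 44 (39.6%) fell in 3′ UTR, 34 (30.6%) in coding sequence, 22 (19.8%) in exons of noncoding genes and 11 in noncoding transcripts of coding genes. Exonic bases past gene midpoints and over 1 kb from any start were 56.5% 3′ UTR, 27.35% coding and 15.7% noncoding, while 8 senescent and 1 proliferating exon sites lay in no coding gene. Among the 91 exon sites past the midpoint of a coding gene, the set comparable to these bases, 3′ UTR was 43.96% (34.2 to 54.2), below its share of bases. Coding sequence was 36.3% (27.1 to 46.5) and noncoding exon 19.8% (12.9 to 29.1) of them, and both intervals include the share of bases. The exons were long, with medians of 2437 and 1852 bases, and the nearest annotated start was a median of 6961 and 5578 bases away.

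Among senescent exon sites the highest reads and folds were in noncoding transcripts and 3′ UTRs. The median reads were 15 (9 to 22, n = 18) in coding exons, 20 (14 to 34, n = 29) in 3′ UTR and 65 (18 to 114, n = 16) in noncoding genes, with overlapping intervals. The highest folds were in STEAP1B-AS1, an antisense lncRNA of STEAP1B, with 176 and 0 and 119 and 0 reads in its last exon, and 304 bases on STEAP1B itself had 42 and 0. HECW2, a ubiquitin ligase, had 101 and 2 and 66 and 0 reads in the last exon of a noncoding transcript. SYNE1, a nuclear envelope protein that links to actin, had 63 and 0 reads in such an exon and 87 and 7 at a near-start site. DCAF5, a substrate receptor of CUL4 ligases, had 52 and 0 in coding exon 9 of 9. ADAMTS5, a protease of aggrecan, had 52 and 0 in its 3′ UTR and an overlapping site that rested on 1 read and was the only member with under 5 reads. PXDN had 32, 24 and 11 reads against 0 in its 3′ UTR. NCOA7, a coactivator of nuclear receptors, had the most reads of any exon site, 353 and 2, with 120 and 4 and 10 and 0 beside it in the 3′ UTR.

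Among proliferating exon sites, SLC9A4, a sodium-proton exchanger, had the highest fold, with 294 reads and 0 in coding exon 8 of 12 (chr2:103130570-103130719). UNC5CL had 140 and 0, 152 and 4 and 37 and 0 reads in its 3′ UTR. ANKRD35 had 346 and 6, 288 and 6 and 134 and 3 reads in a single coding exon, the 10th of 14. SYNC, an intermediate filament protein of muscle, had 78 and 0 in coding exon 3 of 4, and GUCY1B1, a subunit of the nitric oxide receptor guanylate cyclase, had 59 and 0 in its last exon. RGS20, a regulator of G protein signalling, had 44 and 0 and 20 and 0 in coding exon 4 of 5. RAPGEF3, a cAMP-gated exchange factor for Rap, had 43 and 3, 37 and 0 and 26 and 0 in its 3′ UTR. GAU1, a noncoding RNA gene, had 91 and 5 and 43 and 0 at overlapping sites.

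Sites came in groups. The 252 members lay at 169 genes, 98 with senescent and 71 with proliferating sites, and no gene had members of both lists. Counting sites of any class, 14 of 600 genes had sites of both. At 52 genes there were at least 2 members, 31 with senescent sites (78 sites) and 21 with proliferating sites (57 sites). At least 3 were found at 10 and 8 genes. PLXNA2, a receptor for semaphorins, led with 6 proliferating sites over 1257 bases around a start 214.1 kb into the gene, with 64, 61, 38, 21, 10 and 8 reads against 3, 1, 0, 1, 0 and 0. PCSK7, a proprotein convertase, had 5 with 28 to 159 reads against 0 to 4. NOS3, the nitric oxide synthase of endothelium, had 4 with 11 to 45 reads in 2 pairs, each within 100 bases of a start. Its senescent reads, summed over the sites, were 3. SYN1, a protein of synaptic vesicles, had 4 with 16 to 59 reads on chromosome X, against 9 senescent reads summed over the sites. On that chromosome the senescent list had no member and the proliferating list had 7. The share of all listed sites on X is not given here, so these counts cannot be read as a property of the members. On autosomes alone, near-start sites were 8.85% of the senescent and 16.62% of the proliferating list. Exon sites were 8.49% and 10.63%, and all 4 shares were near those over all chromosomes. MED15, a Mediator subunit, had 5 senescent sites with 197, 97, 61, 17 and 14 reads against 9, 1, 1, 0 and 0. KCNJ15, a potassium channel, had 3 with 51, 50 and 9 reads, and VPS53, a tethering protein of endosomes, 3 with 157, 112 and 99. Their proliferating reads, summed over the sites, were 4 for KCNJ15 and 12 for VPS53. Members with another site within 1 kb were a median of 197 bases (senescent) and 210 bases (proliferating) from it, and 21 and 20 overlapped one, so that neighbouring values can share reads. Another site of the list within 10 kb was found for 70.3% of senescent near-start sites and 52.1% of exon sites, a difference of 18.2 points (2.31 to 32.8), and for 62.7% and 62.5% of proliferating ones. Neither class differed beyond the interval from the intronic sites of its list, at 63.35% and 63.5%.

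The base composition of the classes differed. A site was called CpG-rich with at least 50% GC and at least 0.6 of the expected CpG, the pattern of CpG island promoters. In the proliferating list 11 of 67 near-start sites (16.4%) and 5 of 40 exon sites (12.5%) were CpG-rich against 3.47% of intronic sites, differences of 12.95 points (5.41 to 23.7) and 9.03 points (1.45 to 22.7). In the senescent list it was 4 of 74 (5.41%) and 3 of 71 (4.23%) against 0.426%, differences of 4.98 points (1.6 to 12.7) and 3.8 points (0.903 to 11.3). With sites joined within 500 bases the senescent near-start difference was 1.85 points and the proliferating exon difference 4.21 points, and both intervals then included 0. All of these stayed under the 37.95% of all annotated transcript starts. The CpG-rich members included ARHGAP22, CPAMD8, PTPN18, SYN1, UNC5CL and ANKRD35 in proliferating cells and LTBP1, ANK1 and DCAF5 in senescent cells. Median GC near starts was 53% and 49.5% in the proliferating and senescent lists, against 46.5% and 45% in introns.

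GC boxes were more frequent in the proliferating than in the senescent list, near starts and elsewhere. They were found at 18 of 67 proliferating near-start sites (26.9%), close to the 29.2% of all annotated starts, and at 5 of 74 senescent ones (6.76%), a difference of 20.11 points (7.89 to 32.4) that was 20.54 points (5.62 to 35.5) with sites joined. Intronic sites differed in the same direction, 10.07% against 2.56%, by 7.51 points (4.21 to 11.6), and whole lists 13.5% against 3.3%. Against intronic sites of the same list (10.07%) the proliferating near-start class was 16.8 points higher (6.81 to 28.8). CpG-rich sites were also more frequent near starts in the proliferating than in the senescent list, by 11.01 points (0.621 to 22.1), and by 15.74 points (3.62 to 29.4) with sites joined. This too held in introns, 3.47% against 0.426% (3.05 points, 1.27 to 5.86), and over whole lists, 6.5% against 1.18%. For exon sites the lists did not differ beyond the interval in either feature, at 7.96 points (-3.61 to 22.6) for GC boxes and 8.28 points (-2 to 22.2) for CpG-rich sites. A GC box is more likely by letters alone in GC-rich sequence, and its frequency at equal composition was not tested.

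TATA boxes were rarer near starts than in introns. They were at 5.41% of senescent and 5.97% of proliferating near-start sites, against 16.2% and 17.4% of intronic sites and 9.84% of all annotated starts. The differences were -10.8 points (-15.2 to -2.7) and -11.4 points (-17.4 to -2.12). In exons they were -6.33 points (-12.1 to 3.13) and -14.9 points (-20.1 to -3.76). With sites joined within 500 bases all 3 intervals that had excluded 0 reached it, at -9.95, -10.75 and -13.6 points. By letters alone a TATA box is less likely in GC-rich sequence, and its frequency at equal composition was not tested. Among near-start members with a TATA box were PXDN, PLXNA2 and MFSD6.

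The AP-1 motif did not separate the classes. It was at 13 of 74 senescent near-start sites (17.6%) and 11 of 71 exon sites (15.5%) against 18.75% of intronic sites, and at 9 of 67 (13.4%) and 3 of 40 (7.5%) proliferating sites against 9.72%. The near-start differences were -1.18 points (-8.82 to 9.38) and 3.71 points (-3.65 to 14.3). All annotated starts had it at 2.93%, below the lower bound of the interval for near-start sites in both lists (10.6% and 7.23%). Median GC at all annotated starts was 56%, and the frequency of the motif at equal composition was not tested. Senescent members with the motif included LTBP1, PTPRM, MED15, STARD10, LOXL2 and COL8A1, and proliferating members EGF, SLC9A4, PLXNA2 and PLS3. Of the other motifs searched, TEAD (ACATTCC) was at 0 of 74 senescent near-start sites, with an upper bound of 4.94%, where the whole list had 4.59% and introns 5.26%. The CCAAT box (CCAAT) was at 27.0% of these and 14.9% of proliferating near-start sites, against 23.9% and 19.25% of the lists and 23.95% of all starts. The ETS motif (CCGGAAG) was at 4 of 71 senescent and 2 of 40 proliferating exon sites, which was 4.5 points (0.907 to 12.5) and 4.31 points (0.264 to 15.8) above the intronic sites, on few sites.

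**Figure D4:**
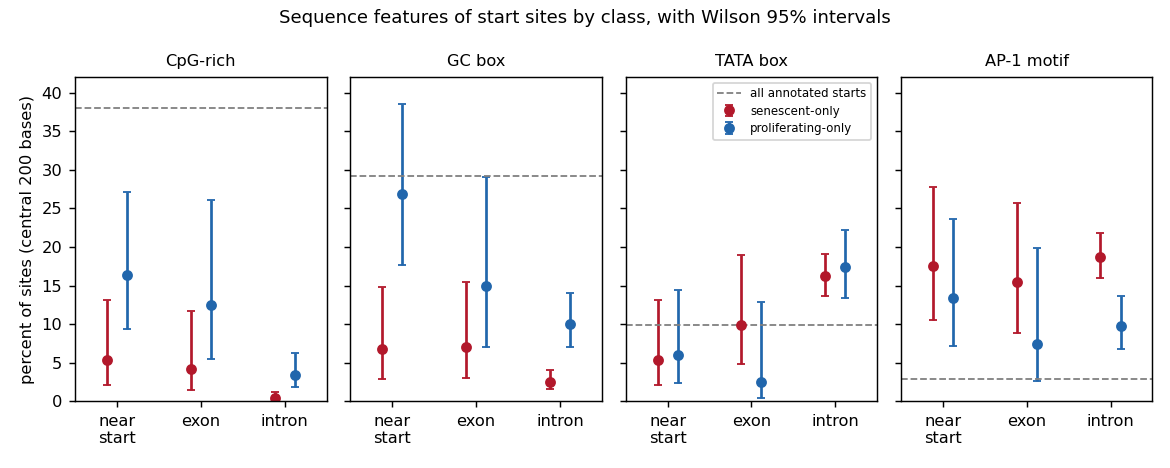
Percent of sites whose central 200 bases were CpG-rich or held a GC box, a TATA box or the AP-1 motif, by class, with Wilson 95% intervals; the dashed line is the share of all 219838 annotated transcript start positions. Proliferating near-start sites reach the line for GC boxes at 26.9%, and all classes are above it for AP-1 by their point values.

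Of 425 genes in the 13 gene lists, 18 (4.24%) had a member, against 0.702% of all protein-coding gene names. The lists were written with results of these data known, so that gap cannot be read as a property of the members. Of 30 genes of the TGF-beta and BMP axis, LTBP1 and TGFBR2 (18 reads and 0, coding exon 3 of 7) had senescent and SMAD3 (12 and 0, 3′ UTR) proliferating members. Of 49 matrix genes, LOXL2 and COL8A1 (15 and 1) had senescent members, and of 32 metalloproteinases and inhibitors ADAMTS5 had senescent and ADAMTS6 (37 and 0) proliferating ones. Among 36 genes of actin and adhesion, ACTN1 (30 and 2, senescent), PLS3 (22 and 0) and PPP1R12B (33 and 0, both proliferating) had one each. Of 37 genes listed as axon guidance and adhesion receptors, PTPRM had a senescent and PLXNA2 and UNC5CL proliferating members. UNC5CL is counted because it was listed, and a role as a guidance receptor was not checked. Among 32 ion channels and exchangers, ITPR1, a calcium channel of the endoplasmic reticulum, had senescent sites with 99 and 3 and 24 and 0 reads, and SLC9A4 its proliferating one. EGF was the 1 gene with a member among 30 listed genes of the EGF family and receptor tyrosine kinases. MAFK was the 1 among 40 AP-1, RUNX, TEAD and other listed fibroblast factors. No member lay at any of the 30 secreted factors of senescence, 33 cell cycle genes, 34 chromatin regulators or 20 housekeeping genes listed. All these counts cover the listed genes only, and members also lay at unlisted genes of such kinds. Among them were ASPM, a spindle protein of mitosis (12 and 0 reads), EPHA1, a receptor tyrosine kinase (73 and 1), and KCNJ15, a potassium channel. Of 21 annotated markers of other cell types (1 of the 22 listed was not found in the annotation), only NOS3, of endothelium, had members. Sites of any class, introns included, lay at 5 (senescent) and 2 (proliferating) of the matrix genes and 4 and 3 of the TGF-beta and BMP genes. The counts were 7 and 5 for the genes listed for axon guidance, UNC5CL included, and 2 and 0 for the secreted factors. Such sites lay at 1 and 1 of the EGF family and receptor kinases, 4 and 1 of the metalloproteinases and 2 and 0 of the cell cycle genes. They also lay at 4 and 4 of the listed factors and 7 and 5 of the channels. For actin and adhesion genes the counts were 7 and 3, for chromatin regulators 3 and 1, for housekeeping genes 0 and 0, and for the markers 0 and 1. These are counts of sites, not levels of the genes.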

How the data were processed

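The authors deposited 4 site lists, of which 2 were distinct. Each row is a 150-base site with a fold, the ratio of one state to the other as computed by the authors, all above 10. The submitters' processing notes list HOMER, cutadapt (2.10), BWA (0.7.10), bedtools (2.27.1-65) and SAMtools (1.1) without saying what each did, and hg19 among the builds. Site calling, cutoffs and pooling of libraries for the lists are not given in the sources used here. Library depths are unknown.

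All 849 and 400 folds were matched by whole reads, each worth 32.8 (senescent) or 39.4 (proliferating), plus a pseudocount of 1 in each state (tolerance 1e-06 of a read; 0.02% of 10000 random folds matched). Decoding was tested on simulated data. Because of the pseudocount, folds of sites with 0 reads in the other state grow directly with reads.

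Midpoints were set against GENCODE 44 lifted to GRCh37 with Python 3.11.15, pandas 2.3.3, scipy 1.17.1 and pysam 0.24.0. Motifs were searched in 200 bases, on both strands; besides those spelled out in the results, they were RUNX (TGTGGTT), ETS (CCGGAAG), the E-box (CACGTG) and the cAMP response element (TGACGTCA). Shares carry Wilson and differences Newcombe 95% intervals, and no test was run, since the lists hold no replicates. The named genes are those of the 8 sites with the highest fold in each of the 4 combinations of list and class, genes with at least 2 members of a list, genes with members of both (none), and genes of 13 hand-written gene lists. The members, lists and rule were chosen with earlier results of these data known. Alternatives joined neighbouring sites, narrowed the start window to 500 bases, restricted the annotation or chromosomes, kept only sites without a read in the other state, classed sites by any overlap, counted neighbours within 1 kb, changed the sequence window or set a read minimum. Some sites that the rule names are not reported here.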

Additional observations from a re-analysis of the deposited data

How the results depend on the processing

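Of 308 recomputed values, 282 stayed within the interval of the reported value or, for differences, on the same side of 0 with the same reading of the interval, 15 differences lost and 1 gained an interval without 0, 10 values moved, and none reversed. Joining sites within 500 bases gave near-start minus intron differences in senescent sites of 1.85 points for CpG-rich, -9.95 for TATA and 3.67 for GC boxes, and in proliferating sites -10.75 for TATA; exon minus intron became 4.21 for CpG-rich and -13.6 for TATA (proliferating). A 500-base start window gave near-start shares of 4.95% and 12.5% and senescent differences of -11.1 points (TATA) and 2.02 (GC box). Basic transcripts only left 1.65% and 3.25% near starts, with median GC of 53.75% and 65.5%, a median of 42 proliferating reads, TATA differences of -15.2 and -15.98 points, and 12.9 points more senescent exon than intronic sites without a read in the other state. Coding genes only gave a senescent exon share of 6.6% and a GC box difference of 1.999 points near starts. Sites without a read in the other state gave -9.8 points for TATA (senescent near-start) and 47.75% GC in senescent exons. A 150-base window gave senescent GC box differences of 1.5 (near-start) and 3.08 points (exon), and a 400-base window 44.25% GC in senescent exons and -8.51 points for TATA in proliferating near-start sites. Fewer sites per class widen the intervals in the joined and restricted sets; the cause of the other changes was not tested. The read minimum of 5 and joining for distances and kinds were chosen after seeing the data. No paired analysis was possible because each deposited list has a single fold per site and none per replicate.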

Other observations

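Some members outside the rule for named genes were chosen after their values were seen. In the senescent list, SMG6, a factor of nonsense-mediated decay, had 230 senescent and 7 proliferating reads 13 bases past a coding start 130.6 kb into the gene. FKBP15 had 243 and 7 in coding exon 13 of 28, near an internal start. VIM-AS1, the antisense lncRNA of vimentin, had 72 and 2 reads 64 bases past a start. PTGS2, the inducible cyclooxygenase, had 15 and 0 in its 3′ UTR, and WNT5B 9 and 0 in coding exon 4 of 5. In the proliferating list, EPHA1, an ephrin receptor, had 73 and 1 reads near an internal start, and ASPM, a spindle protein of mitosis, 12 and 0 in coding exon 18 of 28. Each of these genes had 1 member.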
